A study of Mus musculus with 12 samples.

Results

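A set of 9 genes that encode voltage-gated potassium channel subunits were followed through pressure overload and its relief in the mouse left ventricle. The genes were Kcnd2, Kcnd3, Kcnip2, Kcna1, Kcna5, Kcnv2, Kcnq1, Kcne1 and Kcnh2, 9 of the 18193 genes with a probe set of their own on the array. They were chosen by name, with earlier results of these data known. Together they had 21 probe sets, none shared with another gene symbol, and the one with the highest mean over the 12 arrays stands for its gene. No representative stayed below a log2 signal of 4, the level used here to call a probe set dim. Of the 9 genes, 7 lay above it on all 12 arrays, Kcna1 on 10 and Kcnv2 on 9, and all 9 entered the tests. Another 6 probe sets, of Kcnd2, Kcnd3, Kcnip2 and Kcna1, never exceeded it. The tissue was the left ventricle, cut free of the right ventricle and the atria, of male C57BL/6 mice first operated on at 7 weeks of age, 1 array per mouse and 3 mice per group. The DB3 mice had their aorta banded, were debanded after 4 weeks and were studied 3 days later. The AB mice were banded and studied after 4 weeks with the band in place. The sDB3 mice are labelled as a sham procedure with debanding afterwards and were studied 3 days after it. The sAB mice had the sham procedure alone and were studied after 4 weeks. DB3 and sDB3 mice thus had 2 operations and were slightly older, while AB and sAB mice had 1.

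Voltage-gated potassium channels open when the cell membrane is depolarised, and the outward current that follows returns the cardiac action potential to rest. In the mouse ventricle the early, fast transient outward current is carried by Kv4 pores, encoded by Kcnd2 and Kcnd3, together with the calcium-binding accessory protein KChIP2, encoded by Kcnip2. Slower currents run through Kv1.5, encoded by Kcna5, and through other delayed rectifiers. Kcnq1 with its small partner Kcne1 and Kcnh2 form the slow and rapid delayed rectifier channels that dominate repolarisation in larger mammals. Cardiac hypertrophy is known for a longer action potential and a smaller transient outward current.

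The promoters of Kcnip2 and Kcnd2 are shown because these partners of the transient outward channel were both higher in DB3 than in AB ventricles, as was Klf15, a transcription factor known to act on Kcnip2 in the mouse heart. RefSeq promoters on the GRCm38.p6 build were at hand for 5 of the 9 genes. Each stretch runs 300 bases 5′ to 3′ on the gene's strand, from 250 bases before the start of the gene to 50 after it. Capitals mark CACCC on either strand, which reads GGGTG on the other, the core letters of boxes that Klf-type factors bind. The Kcnip2 stretch is chr19:45816014-45816313 on the minus strand, and the Kcnd2 stretch is chr6:21215096-21215395 on the plus strand.
Kcnip2: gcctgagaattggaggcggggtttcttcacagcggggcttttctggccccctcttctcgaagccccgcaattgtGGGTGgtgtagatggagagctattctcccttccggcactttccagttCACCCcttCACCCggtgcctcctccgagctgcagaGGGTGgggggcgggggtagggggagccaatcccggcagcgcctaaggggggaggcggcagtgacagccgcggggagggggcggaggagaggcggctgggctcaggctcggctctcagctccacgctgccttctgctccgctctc
Kcnd2: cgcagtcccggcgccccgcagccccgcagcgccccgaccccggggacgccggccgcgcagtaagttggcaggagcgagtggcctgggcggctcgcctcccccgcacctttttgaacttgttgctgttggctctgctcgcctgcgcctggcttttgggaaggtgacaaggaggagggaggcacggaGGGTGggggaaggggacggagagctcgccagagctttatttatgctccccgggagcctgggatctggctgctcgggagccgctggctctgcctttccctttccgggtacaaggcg
The Kcnip2 stretch holds 4 matches and the Kcnd2 stretch 1. Those of Kcnh2, Kcnd3 and Kcna5, which were not called in DB3 against AB, hold 4, 3 and 2. All 5 subunit promoters thus hold the box, and 57.5% of all 32851 promoters of this length hold at least 1, so such a match is common. The E-box CACGTG, which clock factors bind and which 7.15% of promoters hold, is found in neither stretch on either strand. Nor is TTATGTAA, the D-box read by Dbp-type factors, which 0.938% hold on either strand. These are matches of letters, and binding was not measured.

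Cardiomyocyte markers were strong on every array, but the listed markers do not tell the left ventricle from the right. How much atrial tissue each sample held was not tested. The 8 ventricular cardiomyocyte markers had a mean log2 signal between 15.4 and 15.6 on every array. Markers of atrial cardiomyocytes varied widely between arrays of 1 group: over the 6 listed genes, of which Bmp10 was never above 4, the mean per array ran between 4.75 and 8.67 in DB3, 6.81 and 8.08 in AB, 7.11 and 8.68 in sDB3, and 5.37 and 6.62 in sAB. The sAB arrays stood apart on the spiked bacterial control BioC, at 10.35 ± 0.18 (SD, n = 3), against 8.39 ± 0.065 in DB3, 8.41 ± 0.17 in AB and 8.39 ± 0.18 in sDB3. Whatever set these arrays apart and the sAB group cannot be told apart, so AB is set against sDB3 as well as against sAB below. That second comparison shares the AB arrays with the first and is matched neither for the second operation nor for time. The ratio of 3′ to 5′ signal of Actb, a sign of RNA quality, ran between 1.11 and 1.32 log2 units in DB3, 1.02 and 1.13 in AB, 1.20 and 1.25 in sDB3, and 1.20 and 1.26 in sAB. In bulk tissue, fewer cells of a type and less RNA per cell cannot be told apart.

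On the representative probe sets, AB ventricles had the 9 subunits lower than in either sham or not past the threshold. The second Kcnip2 probe set, tested on its own, passed as higher in AB than in sAB. Kcnd2, Kcnip2 and Kcnv2 were higher in DB3 than in AB, and Kcnip2 was also higher in sDB3 than in sAB, where neither group had been banded. A subunit is said to be called where its limma p-value, adjusted over the 10435 genes tested, is at most 0.05. Over the 4 groups, 5 of the 9 subunits passed the F test (Kcnd2, Kcnip2, Kcna1, Kcnv2 and Kcnq1), where 37.2% of all genes did. In AB against sAB, 0 subunits were higher and 2 lower, Kcnd2 and Kcnv2, where 12% of all genes were called higher and 7.69% lower. Set against sDB3, AB had 0 higher and 5 lower, Kcnd2, Kcnip2, Kcnv2, Kcnq1 and Kcnh2, where 17.3% of all genes were called higher and 4.69% lower. The median log2 difference of the 9 subunits was -0.31 against sAB and -0.54 against sDB3, beside 0.012 and 0.11 over all genes. Markers of other cells moved with AB. Of 5 fibroblast markers 2 were higher against sAB and 0 against sDB3, of 5 endothelial markers 1 and 3, of 5 smooth muscle and pericyte markers 2 and 2, and of 5 tested atrial markers 1 and 0. All 5 atrial markers lay higher in AB than in sAB without overlap, with a median log2 difference of 1.97, and the median against sDB3 was -0.69. The mean log2 signal of the fibroblast markers ran between 10.64 and 10.996 per AB array, against 10.18 and 10.22 in sDB3 and 9.85 and 10.61 in sAB. All 5 fibroblast markers lay higher in AB than in sDB3 without overlap, where 32.5% of all genes did. Against sAB, 2 of them did, beside 23.1% of all genes, and 0 lay lower in either comparison. Of the 8 ventricular cardiomyocyte markers, 2 were lower in AB against sDB3 and 0 passed against sAB. Without overlap, 7 of them lay lower in AB than in sDB3, where 10.5% of all genes did. Against sAB, 3 lay lower, beside 19.0% of all genes, and 0 lay higher in either comparison. Their median log2 difference was -0.11 in AB against sDB3. In DB3 against sDB3, 7 of the 8 lay lower without overlap as well, beside 5.74% of all genes. The median there was -0.080, and 0 of the 8 passed. The part of these cells in the lower subunit levels was not tested.

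In DB3 against AB, Kcnd2, Kcnip2 and Kcnv2 were higher and 0 were lower, where 4.04% of all genes were called higher and 5.12% lower, and the median was 0.35 beside -0.017 over all genes. Here too markers of other cells moved. In DB3 against AB, 3 of 5 fibroblast, 3 of 5 endothelial and 2 of 5 smooth muscle and pericyte markers lay lower without overlap, where 17.6% of all genes did. Among them 1, a smooth muscle and pericyte marker, was called. Of the 8 ventricular cardiomyocyte markers, 2 lay higher and 1 lower without overlap, and 0 were called. The part of these cells in the higher subunit levels was not tested. Against its own sham, DB3 differed in 1 subunit, Kcna1, which was lower, where 5.37% of all genes were called higher and 0.997% lower, and the median was -0.075 beside 0.091. This background is not firm, since the 560 genes called higher and 104 lower became 133 and 37 without sDB3 replicate 2, the array whose loss left the fewest calls. The total of 664 fell to between 206 and 235 without sDB3 replicate 1 or any 1 DB3 array, and to between 375 and 434 without any 1 AB array. Other backgrounds moved too. Without AB replicate 3, the 956 genes called in DB3 against AB became 365, and the 630 of the difference of effects became 152. The 2058 of AB against sAB then became 1139, and the 2298 of AB against sDB3 became 1124. The effect of banding with debanding and that of banding, each against its sham, differed for 1 subunit, Kcnv2, which was higher, where 3.45% of all genes passed as higher and 2.59% as lower. The shams differed in 1 subunit, Kcnip2, higher in sDB3, where 5.49% of all genes were called higher and 12.3% lower.

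Groups that did not overlap were common among all genes. In AB against sAB, 4 subunits had every AB array below every sAB array and 0 the reverse, where 19.0% of all genes did so and 23.1% the reverse. In AB against sDB3 it was 6 below, where 10.5% of all genes lay below and 32.5% above. In DB3 against AB, 3 subunits lay above without overlap and 0 below, where 14.7% of all genes lay above and 17.6% below. In DB3 against sDB3 the counts were 1 above and 1 below, beside 22.4% and 5.74% of all genes, and in sDB3 against sAB 3 above and 0 below, beside 11.1% and 25.9%.

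**Figure D1:**
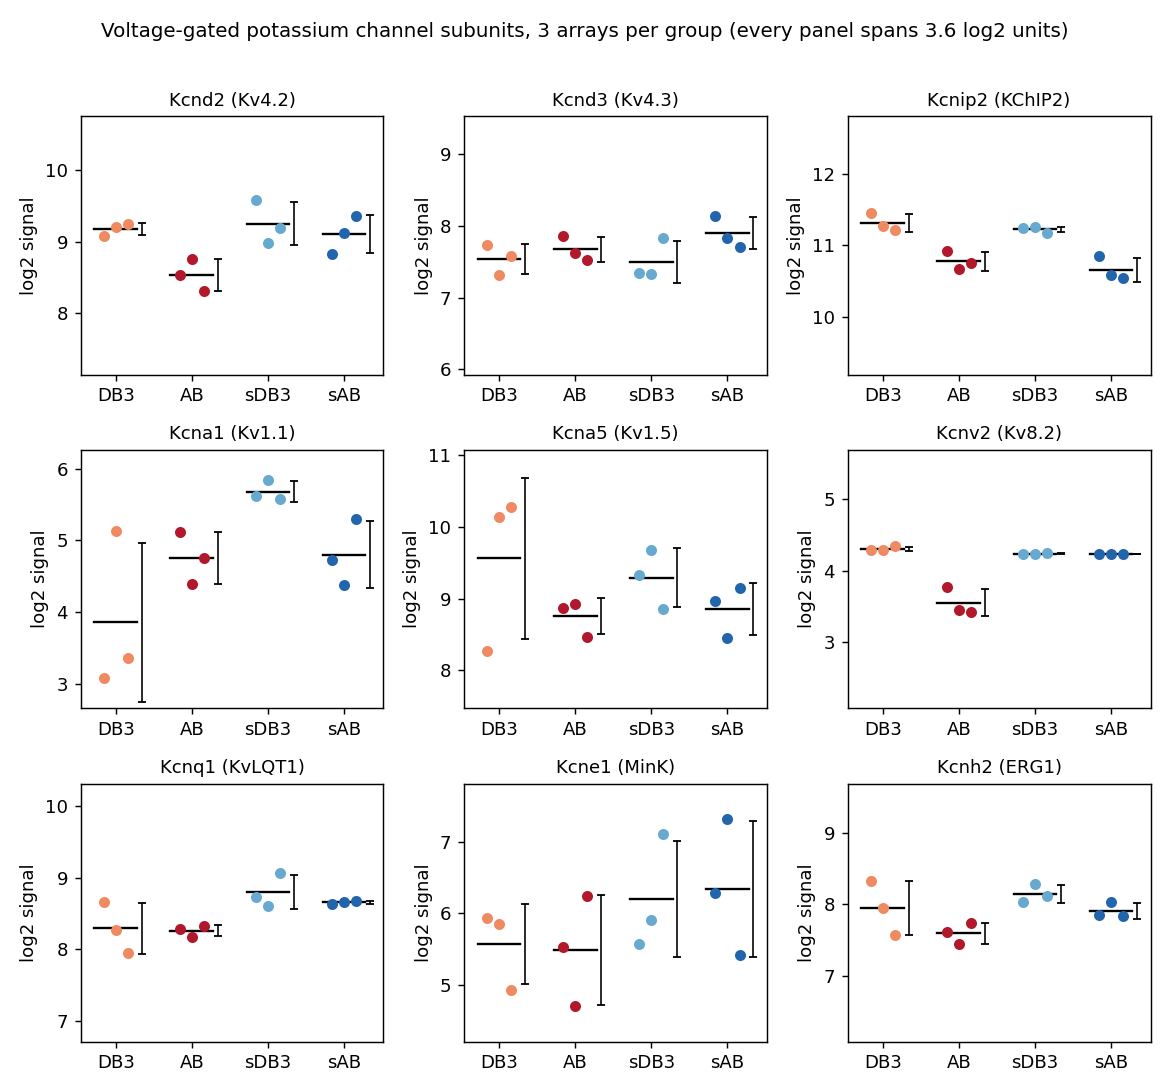
Log2 signal of the 9 channel subunits in the left ventricle, 1 point per array, with the group mean as a line and its SD as a bar beside the points (n = 3 per group). Kcnd2 and Kcnv2 are lowest in AB, Kcnip2 is higher in DB3 and sDB3 than in AB and sAB, and Kcna1, Kcna5 and Kcne1 spread widely within a group.

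**Figure D2:**
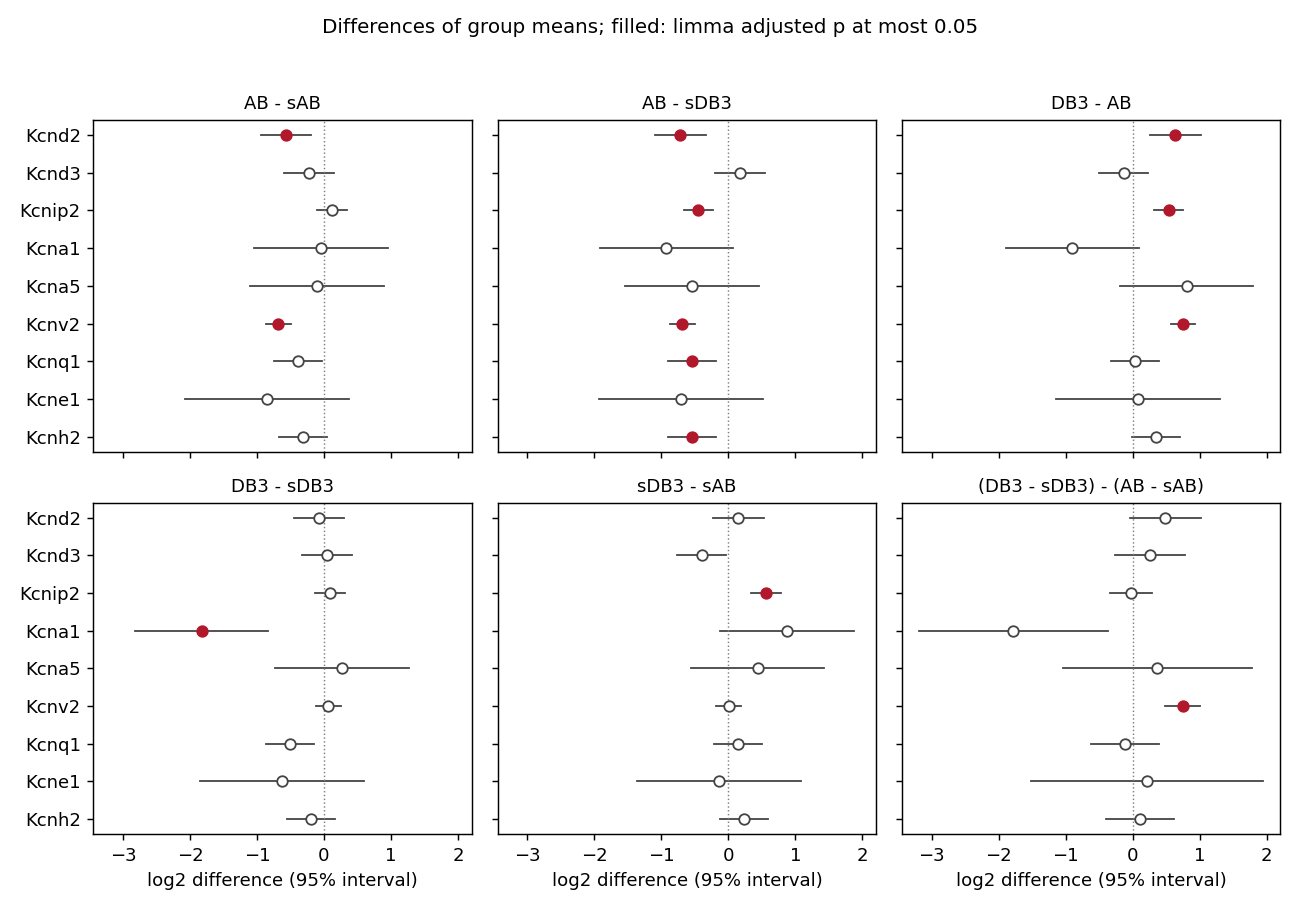
Differences between group means on the log2 scale with 95% intervals, 1 panel per comparison, and filled where the limma adjusted p is at most 0.05. Filled points lie left of 0 in AB against either sham and right of 0 in DB3 against AB.

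Kcnd2 encodes Kv4.2, the main pore of the fast transient outward current in the mouse ventricle. Its log2 signal was 9.08, 9.21 and 9.25 in DB3, 8.53, 8.76 and 8.32 in AB, 9.58, 8.99 and 9.20 in sDB3, and 8.83, 9.12 and 9.35 in sAB. On this representative probe set, all 3 AB arrays lay below every other array, and the other groups overlapped one another. Kcnd2 was 1.48-fold lower in AB than in sAB (log2 difference -0.57 ± 0.17, SE, limma adjusted p = 0.0409) and 1.64-fold lower than in sDB3 (-0.71 ± 0.17, adjusted p = 0.0157). In DB3 it was 1.56-fold higher than in AB (0.64 ± 0.17, adjusted p = 0.0425), and it did not pass against sDB3 (-0.075 ± 0.17, adjusted p = 0.817). Both further probe sets above the dim level gave the same direction for DB3 minus AB, AB minus sDB3 and AB minus sAB. DB3 minus AB was 1.03 (adjusted p = 0.0283) and 0.94 (adjusted p = 0.0471) on them, when every probe set was tested on its own, and AB minus sDB3 was -0.82 (adjusted p = 0.0399) and -0.96 (adjusted p = 0.0252). AB minus sAB did not pass on either, at -0.54 (adjusted p = 0.144) and -0.19 (adjusted p = 0.64), and the AB and sAB arrays overlapped on both. On the last, the means were 6.87 in DB3, 5.93 in AB, 6.90 in sDB3 and 6.13 in sAB. Between the shams, sDB3 minus sAB was 0.15 on the representative (adjusted p = 0.573 in the same run). It was 0.27 (adjusted p = 0.461) and 0.77 (adjusted p = 0.061) on the further probe sets. DB3 minus sDB3 did not pass on any of the 3, and its sign differed between them. These calls lie near the threshold. Leaving out 1 array ended the call of AB against sAB for 7 of 12 arrays (AB replicates 1 and 3, DB3 replicates 2 and 3, sDB3 replicate 3, sAB replicates 2 and 3, adjusted p up to 0.147). It ended that of DB3 against AB for 8 (all of AB and DB3, sDB3 replicate 3 and sAB replicate 2, adjusted p up to 0.158), and that of AB against sDB3 for AB replicate 3 (adjusted p = 0.0657).

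Kcnip2 encodes KChIP2, which binds the Kv4 pores and without which mice lose the fast transient outward current. Its log2 signal was 11.46, 11.27 and 11.22 in DB3, 10.92, 10.66 and 10.75 in AB, 11.24, 11.25 and 11.18 in sDB3, and 10.85, 10.59 and 10.54 in sAB. Every array of the groups with a second operation, DB3 and sDB3, lay above every array of AB and sAB, with or without a band before. Kcnip2 was 1.45-fold higher in DB3 than in AB (log2 difference 0.54 ± 0.10, limma adjusted p = 0.00972). It was 1.48-fold higher in sDB3 than in sAB (0.56 ± 0.10, adjusted p = 0.00623). Against the sham of the same stage neither banded group passed. The difference was 0.12 ± 0.10 for AB minus sAB (95% interval -0.11 to 0.34, adjusted p = 0.455) and 0.091 ± 0.10 for DB3 minus sDB3 (-0.13 to 0.31, adjusted p = 0.597). In AB it was 1.36-fold lower than in sDB3 (-0.45 ± 0.10, adjusted p = 0.0121), a call lost without AB replicate 2 (adjusted p = 0.0506).

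The second Kcnip2 probe set above the dim level ordered AB and sAB more firmly. It read 9.86, 9.69 and 9.76 in DB3, 9.41, 9.08 and 9.13 in AB, 9.70, 9.62 and 9.57 in sDB3, and 8.85, 8.62 and 8.52 in sAB. Here the AB arrays lay above all sAB arrays and below all of sDB3 and DB3. AB minus sAB was 0.54 (adjusted p = 0.00647 when every probe set was tested on its own), where the representative gave 0.12 (adjusted p = 0.468 in the same run). The probe sets thus disagree on whether banding moved Kcnip2 against sAB, and neither showed it lower. For DB3 minus AB they gave 0.56 and 0.54, and for sDB3 minus sAB 0.96 and 0.56.

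Kcnd3 encodes Kv4.3, the other Kv4 pore of the ventricle. It read 7.73, 7.31 and 7.58 in DB3, 7.86, 7.63 and 7.53 in AB, 7.34, 7.33 and 7.83 in sDB3, and 8.14, 7.83 and 7.71 in sAB. The groups overlapped in every comparison, and none of the 6 passed. The difference was -0.13 ± 0.17 for DB3 minus AB (95% interval -0.51 to 0.24) and -0.22 ± 0.17 for AB minus sAB (-0.59 to 0.15). Without sDB3 replicate 3, sDB3 minus sAB passed at -0.56 (adjusted p = 0.0341), against -0.40 ± 0.17 (adjusted p = 0.12) with all arrays. Whether Kcnd2 and Kcnd3 differ in their response was not tested.

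**Figure D3:**
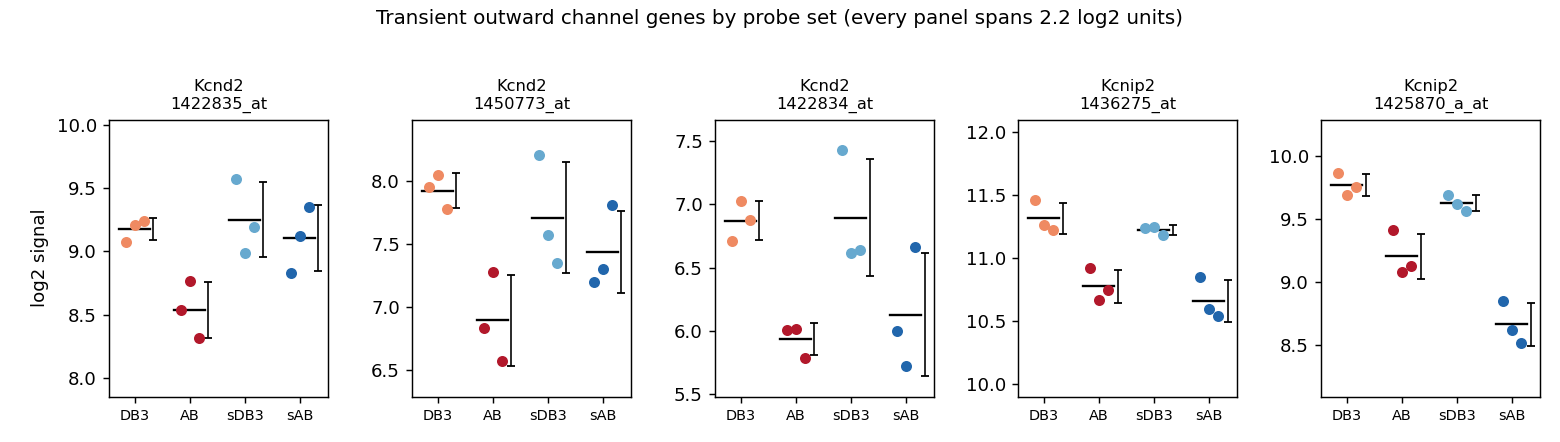
Log2 signal of the 3 Kcnd2 and 2 Kcnip2 probe sets above the dim level, 1 point per array, with the mean as a line and the SD as a bar (n = 3 per group). All 5 probe sets have AB below DB3 without overlap. The first Kcnd2 probe set has AB below sAB without overlap and the second Kcnip2 probe set has AB above sAB.

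Klf15, known to raise Kcnip2 and to follow the day in the mouse heart, read 9.52, 9.65 and 9.71 in DB3, 8.59, 8.14 and 8.32 in AB, 9.22, 9.53 and 8.82 in sDB3, and 8.46, 8.27 and 8.75 in sAB. As with Kcnip2, all DB3 and sDB3 arrays lay above all AB and sAB arrays. It was higher in DB3 than in AB by 1.28 ± 0.18 (adjusted p = 0.00318), lower in AB than in sDB3 (-0.84 ± 0.18, adjusted p = 0.0101) and higher in sDB3 than in sAB by 0.70 ± 0.18 (adjusted p = 0.0259). Many clock genes moved along the same split. Of the 14 listed and tested, 10 were higher and 2 lower in DB3 against AB, 5 higher and 3 lower in sDB3 against sAB, 3 higher and 5 lower in AB against sDB3, 1 higher in AB against sAB (Nr1d1, by 1.74, adjusted p = 0.000659), and 0 passed in DB3 against sDB3. The clock output gene Ciart read 6.15, 6.01 and 6.25 in DB3, 2.59, 2.61 and 3.26 in AB, 6.35, 6.65 and 2.85 in sDB3, and 3.05, 2.80 and 2.80 in sAB. For Ciart, sDB3 replicate 3 thus read like the AB and sAB arrays. For Cry1 it read 6.89, below all AB and sAB arrays, and its Klf15 and Kcnip2 signals of 8.82 and 11.18 lay above all of theirs. The hour at which mice were killed is not given in the sources used here, and the part of clock phase in the Kcnip2 result was not tested.

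**Figure D4:**
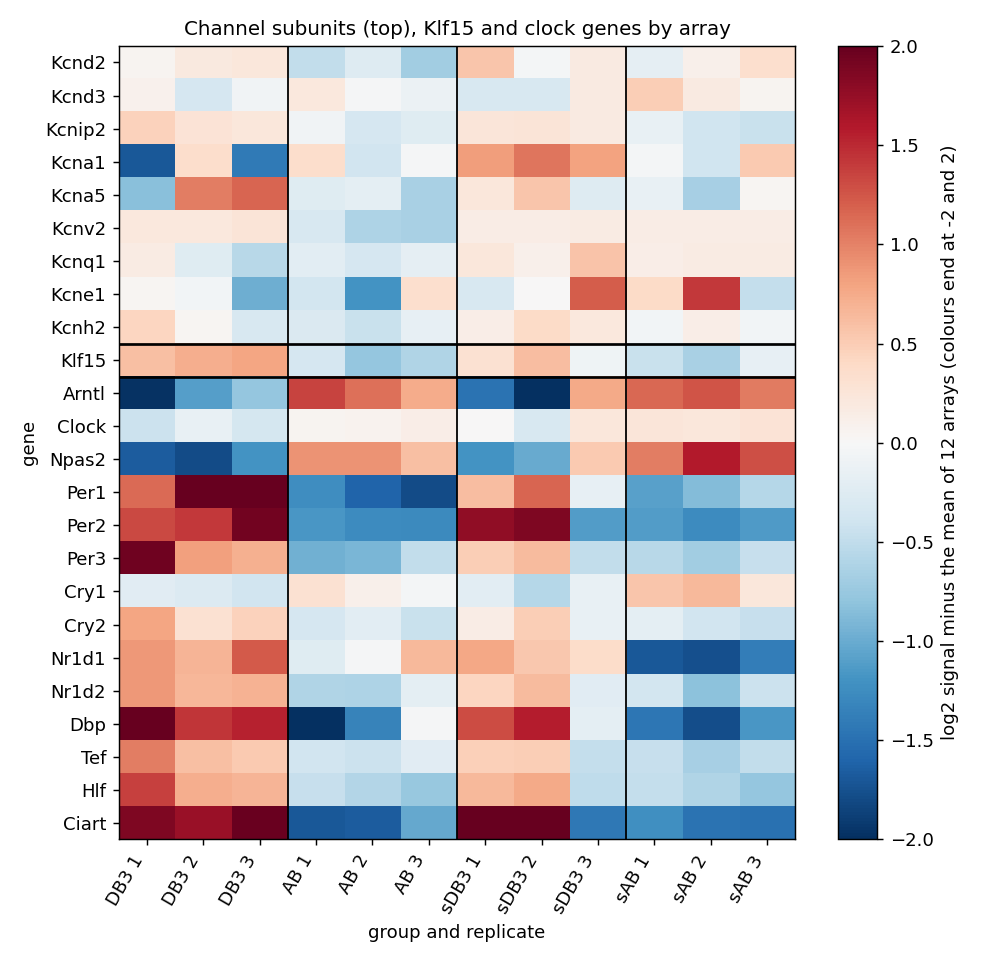
Log2 signal minus the gene's mean over the 12 arrays, with 1 column per array and the channel subunits, Klf15 and the clock genes as blocks of lines, where red is above and blue below the mean and colours end at -2 and 2. Klf15 and most clock genes split DB3 and sDB3 from AB and sAB. The third sDB3 array has colours like AB and sAB for several of them, such as Ciart, Per2 and Arntl. Its value lies below all AB and sAB arrays for Cry1, above them for Per1, and within the range of AB for Nr1d1. Nr1d1 is low in sAB alone.

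Kcna5 encodes Kv1.5, a pore of the slowly inactivating current of mouse ventricular cells. Its log2 signal was 8.27, 10.13 and 10.27 in DB3, 8.87, 8.92 and 8.47 in AB, 9.33, 9.68 and 8.86 in sDB3, and 8.97, 8.45 and 9.15 in sAB. In DB3, replicates 2 and 3 were the highest of all 12 arrays and replicate 1 was the lowest. DB3 minus AB was 0.81 ± 0.45 (95% interval -0.19 to 1.80, adjusted p = 0.303). Without DB3 replicate 1 it was 1.45 (adjusted p = 0.0141), so that 1 array decides the call. AB minus sAB was -0.10 ± 0.45 (95% interval -1.10 to 0.90, adjusted p = 0.899).

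Kcna1 encodes Kv1.1, a pore best known from neurons. It read 3.08, 5.12 and 3.36 in DB3, 5.12, 4.39 and 4.75 in AB, 5.61, 5.84 and 5.57 in sDB3, and 4.73, 4.37 and 5.30 in sAB. The sDB3 arrays lay above all others, and the DB3 arrays were split, with replicates 1 and 3 in the dim range and replicate 2 level with AB. Kcna1 was lower in DB3 than in sDB3 (log2 difference -1.82 ± 0.45, limma adjusted p = 0.0427), and since 2 of the 3 DB3 arrays lay below the dim level of 4 no fold is given. The 2 further probe sets above log2 4 on at least 3 arrays had DB3 means below that level, at 3.10 and 3.84. They gave -1.46 (adjusted p = 0.0836) and -0.80 (adjusted p = 0.145), when every probe set was tested on its own. Leaving out any array other than DB3 replicate 2 or sAB replicate 3 ended the call (adjusted p up to 0.122). Without DB3 replicate 2 the difference was -2.46 (adjusted p = 0.00619), and Kcna1 then also passed as lower in DB3 than in AB (-1.54, adjusted p = 0.0116, against -0.90 and 0.248 with all arrays).

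Some markers of other cells were highest in the same replicate as Kcna1 within DB3 and within sDB3, and others were not. Sox10, a marker of Schwann cells, chosen after its values were seen, read 4.55, 5.03 and 4.28 in DB3, 4.15, 4.31 and 4.00 in AB, 5.06, 5.63 and 4.94 in sDB3, and 4.28, 4.31 and 3.97 in sAB. It was highest in sDB3 replicate 2 and, within DB3, in replicate 2, as Kcna1 was. Cdh19, the other tested marker of that list, read 4.83, 4.73 and 5.03 in DB3 and 4.82, 4.84 and 4.38 in sDB3, lowest in replicate 2 within DB3 and thus unlike Kcna1. Over the 7 Schwann cell and neuron markers on the array, the mean per array ran between 2.93 and 3.11 in DB3, 2.88 and 2.94 in AB, 3.05 and 3.15 in sDB3, and 2.81 and 2.91 in sAB. Of these markers 2 were tested, and S100b, Tubb3, Snap25, Th and Nefl never exceeded 4. Myl7, the atrial myosin light chain, read 9.46, 12.7 and 4.67 in DB3, 11.6, 9.41 and 11.9 in AB, 12.4, 13.0 and 10.1 in sDB3, and 9.28, 6.96 and 9.33 in sAB. It too was highest in replicate 2 within both DB3 and sDB3. So were Myl4 and Sln of the same list. Myl4 read 9.45, 12.6 and 5.24 in DB3 and 12.1, 12.6 and 10.3 in sDB3. Sln read 6.88, 10.5 and 2.86 in DB3 and 9.73, 10.6 and 6.89 in sDB3. The atrial list was not of 1 kind, since Nr2f2 read 7.38, 7.35 and 7.08 in DB3 and 7.52, 7.02 and 6.93 in sDB3, and Tbx5 read 6.90, 6.67 and 6.43 in DB3, both highest in replicate 1. In AB the highest array differed between Kcna1, Sox10 and Myl7. The part of these cells in the Kcna1 result was not tested.

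**Figure D5:**
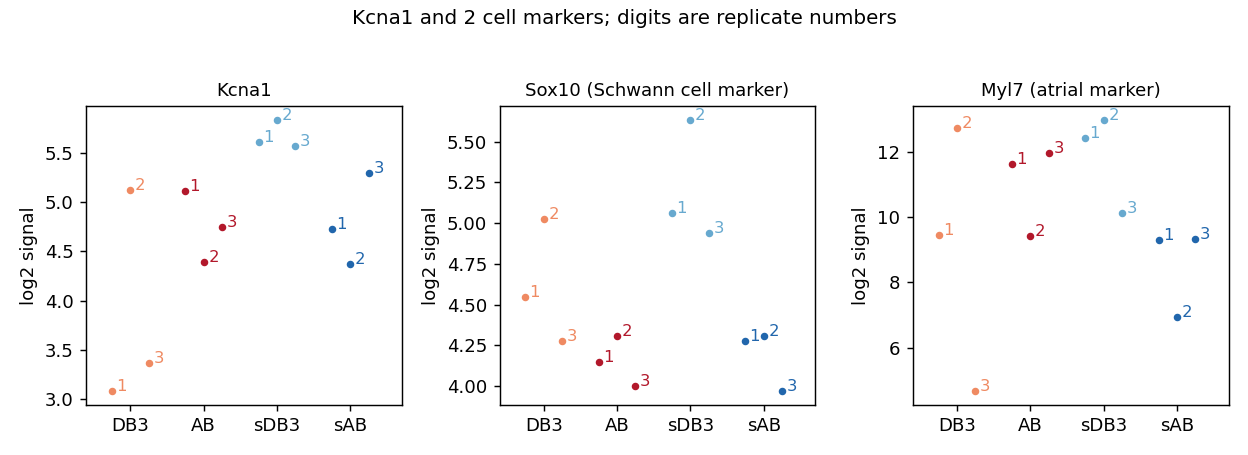
Log2 signal of Kcna1, of the Schwann cell marker Sox10 and of the atrial marker Myl7, 1 point per array with its replicate number. In DB3 the second replicate is the highest for all 3 genes, and in sDB3 likewise. The highest AB array differs between the 3 genes. Sox10 was chosen after its values were seen. Of the same marker lists, Cdh19 is lowest in the second replicate of DB3, and Nr2f2 and Tbx5 are not highest in it.

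Kcnv2 encodes Kv8.2, a subunit that forms no channel alone and modifies Kv2 pores, best known from photoreceptors. Its log2 signal was 4.29, 4.29 and 4.34 in DB3, 3.77, 3.46 and 3.43 in AB, 4.23, 4.23 and 4.25 in sDB3, and 4.23, 4.23 and 4.23 in sAB. The AB arrays lay below all others, and 5 arrays (sDB3 replicates 1 and 2 and all of sAB) carried the identical value of 4.2343. A value repeated in this way is not a separate measurement of each array, and the SD of 0 that it gives sAB enters the tests of this probe set. All AB arrays lay below the dim level, so no fold is given. Kcnv2 was lower in AB than in sAB (log2 difference -0.68 ± 0.084, limma adjusted p = 0.000521), by -0.69 ± 0.084 against sDB3 (adjusted p = 0.000738), and higher in DB3 than in AB (0.75 ± 0.084, adjusted p = 0.00107). DB3 and sDB3 did not overlap either, but the difference of 0.067 ± 0.084 did not pass (adjusted p = 0.646). The effect after debanding minus that of banding, each against its sham, was 0.75 ± 0.12 (adjusted p = 0.0101). All 4 calls held without any 1 array. The signal lay within 1 log2 unit of the dim level on every array, and how far it reflects Kcnv2 transcript was not tested.

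Kcnq1 encodes the pore of the slow delayed rectifier. It read 8.67, 8.26 and 7.96 in DB3, 8.29, 8.18 and 8.32 in AB, 8.73, 8.61 and 9.07 in sDB3, and 8.63, 8.66 and 8.67 in sAB. The AB arrays lay below all arrays of both shams, and the DB3 arrays spread from below AB into the range of the shams. Kcnq1 was 1.46-fold lower in AB than in sDB3 (log2 difference -0.54 ± 0.16, limma adjusted p = 0.0367), while AB minus sAB was -0.39 ± 0.16 (adjusted p = 0.113). Leaving out AB replicate 1, 2 or 3, sDB3 replicate 1 or 3, or sAB replicate 2 ended the call against sDB3 (adjusted p up to 0.11). After debanding the level did not pass against AB, with a DB3 minus AB difference of 0.032 ± 0.16 (95% interval -0.33 to 0.39, adjusted p = 0.93). DB3 minus sDB3 was -0.51 ± 0.16 (adjusted p = 0.0843), and -0.69 (adjusted p = 0.0395) without DB3 replicate 1, whose signal was the highest of DB3. Without that array AB minus sAB passed too, at the same size (adjusted p = 0.0459).

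Kcne1 encodes MinK, the small subunit that slows the opening of the Kcnq1 channel. It read 5.94, 5.85 and 4.93 in DB3, 5.53, 4.71 and 6.24 in AB, 5.58, 5.91 and 7.11 in sDB3, and 6.28, 7.31 and 5.42 in sAB. All groups overlapped, with SDs between 0.56 and 0.95, and none of the 6 comparisons passed. AB minus sAB was -0.85 ± 0.55 (95% interval -2.07 to 0.38, adjusted p = 0.314), an interval too wide to show a change of the size seen for Kcnd2.

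Kcnh2 encodes ERG1, the pore of the rapid delayed rectifier. Its log2 signal was 8.33, 7.94 and 7.57 in DB3, 7.61, 7.45 and 7.74 in AB, 8.04, 8.28 and 8.11 in sDB3, and 7.85, 8.03 and 7.84 in sAB. The AB arrays lay below all arrays of both shams, and DB3 reached from the range of AB to above the highest sham array. It was 1.46-fold lower in AB than in sDB3 (log2 difference -0.54 ± 0.16, limma adjusted p = 0.0365), a call that ended without any 1 AB or sDB3 array (adjusted p up to 0.121), and AB minus sAB was -0.31 ± 0.16 (adjusted p = 0.208). DB3 minus AB was 0.35 ± 0.16 (adjusted p = 0.216), and 0.53 without DB3 replicate 3 (adjusted p = 0.0479).

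Most other subunits of the family were dim in this tissue. Of 45 further voltage-gated potassium channel pore and accessory genes, 36 had a probe set of their own and 3 passed the filter on dim values, Kcna7, Kcne4 and Kcng2. Kcng2, a modifier of Kv2 pores, read 9.19, 8.77 and 8.86 in DB3, 9.08, 8.86 and 9.08 in AB, 9.01, 9.10 and 8.87 in sDB3, and 8.47, 8.65 and 8.58 in sAB. The sAB arrays lay below all others. It was higher in AB than in sAB (0.44 ± 0.11, adjusted p = 0.0227) and in sDB3 than in sAB (0.43 ± 0.11, adjusted p = 0.0297), so both of its calls use the sAB arrays. Kcna7 and Kcne4 passed in none of the 6 comparisons.

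Of 16 genes known to bind or regulate these subunits, 15 were tested, with Thrb dim. In AB against sAB 4 were higher and 1 lower. The rises were those of the cardiac transcription factors Mef2c (0.88 ± 0.099, adjusted p = 0.00034), Gata4 (0.42) and Nkx2-5 (0.42) and of Actn2 (0.23), the sarcomeric alpha-actinin that binds Kv channels. The fall was that of Akap9 (-0.24), the anchor that ties kinase A to the Kcnq1 channel. In DB3 against AB only Klf15 was higher and Gata4 lower (-0.27 ± 0.076, adjusted p = 0.0499), and in AB against sDB3 only Klf15 was lower and Gata4 higher (0.25 ± 0.076, adjusted p = 0.0395). In DB3 against sDB3, Dlg1, a scaffold that binds the tail of Kv pores, was higher by 0.38 ± 0.086 (adjusted p = 0.0334). The shams differed in 6, with Klf15, Mef2c, Nkx2-5 and Actn2 higher in sDB3 and Akap9 and Dlg1 lower. Of all genes, 5.49% were called higher and 12.3% lower there. Irx3, Irx4 and Irx5, homeobox factors of the ventricle of which Irx5 holds down Kcnd2 in the mouse, passed in none of the 6 comparisons.

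For the 5 subunits past the F test, the genes most like each were found by the root mean square difference between centred profiles over the 12 arrays. None of the nearest was another subunit. The nearest to Kcnip2 was Myh14 at 0.0937 log2 units, followed by Ubr2 at 0.118 and Rbm38 at 0.126, against an SD of 0.31 of the Kcnip2 profile itself. Kcnv2 was nearest to Acadsb (0.0927), Adhfe1 (0.0988) and Gstk1 (0.105). Kcnd2 was nearest to Apbb1 (0.168), Rmc1 (0.186) and Hsd11b1 (0.189), and Kcnq1 to Hsd17b7 (0.137), Tmem47 (0.152) and Gramd3 (0.153). Kcna1 had no close match, since its nearest, Cideb, Prepl and Armcx4, lay 0.568 to 0.587 away where its own profile had an SD of 0.863.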

How the data were processed

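Left ventricular RNA of 12 mice was hybridised to Affymetrix arrays, 3 mice per group. The deposited values are log2 signals per probe set that the authors made with GCRMA, per the submitters' processing notes. Neither its version nor its settings are given in the sources used here, and the number of arrays, not a depth, limits the precision. No further normalization was applied. Gene names came from the platform annotation, for probe sets with 1 symbol (34945 of 45101), updated by RefSeq gene ID (34741 found). Probe sets above log2 4 on at least 3 of 12 arrays were kept (17817), and the one with the highest mean over the 12 arrays stood for its gene (10435 genes).

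Group differences were tested two-sided with limma 3.58.1 in R 4.3.3, in 1 model of the 4 groups (8 residual and 2.68 prior degrees of freedom), following the series' design text, which names an analysis of variance per gene. P-values were adjusted by Benjamini-Hochberg over the 10435 genes, and those at most 0.05 were called. Since 3 arrays against 3 allow an exact permutation p of 0.1 at the lowest, calls rest on a spread pooled over genes and groups. Replicate numbers follow accession order and pair nothing. The test was also run on simulated data with known changes. The 9 subunits, the gene lists and the comparisons were chosen with earlier results of these data known, so that no pattern here is independent support for those results. Named are all 9 subunits, up to 4 genes past the threshold per list and comparison, and, for subunits past the F test, the 3 genes with the most similar profile. Irx3, Irx4 and Irx5 and the markers were picked from their lists in addition. Alternatives were to drop the dim filter or raise it to log2 6, to average the probe sets of a gene or test each one, to normalize by quantiles or centre on the median, to fit the compared groups alone, to leave out moderation or add trend and robustness to it, to leave out each array, and a fit of the 9 arrays outside sAB, which was chosen after seeing the data.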

Additional observations from a re-analysis of the deposited data

Results flagged for a closer look

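Kcnv2 drew attention because the effect of banding with debanding against its sham differed from that of banding against its sham, by 0.75 ± 0.12 log2 units (limma adjusted p = 0.0101). The 4 groups read 4.29 to 4.34 in DB3, 3.43 to 3.77 in AB, 4.23 to 4.25 in sDB3 and 4.23 on each sAB array. The probe set lies near the dim level, and 5 of the 6 sham arrays carry 1 identical value, which gives sAB an SD of 0. The part of these repeated values in the result was not tested.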

How the results depend on the processing

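Of 1149 differences of single subunits under alternatives, 1043 kept their direction and side of the threshold, 60 were no longer past it, 12 passed newly and 34 changed sign, none of them past the threshold either way. The calls of Kcnv2 and the higher Kcnip2 in DB3 against AB and in sDB3 against sAB passed in every alternative that tested them, while Kcnv2 was not tested with the filter at log2 above 6. Counts of subunits past the threshold were 2 for AB minus sAB, 1 for DB3 minus sDB3, 1 for the difference of effects, 3 for DB3 minus AB, 5 for AB minus sDB3, 1 for sDB3 minus sAB and 5 in the F test. Leaving out each array gave 1 to 3, 0 to 1, 1 to 2, 2 to 3, 2 to 6, 1 to 2 and 2 to 6 in that order. The count of AB against sAB was 1 without the dim filter, with the filter at log2 above 6, with median centring and without moderation. That of AB against sDB3 was 3 without the dim filter, without moderation and over the 9 arrays outside sAB, and that of the F test was 2 without the dim filter and without moderation and 3 with the filter at 6, which also gave 0 for the difference of effects. The single call of DB3 against sDB3, Kcna1, was lost (count 0) without the dim filter, with the filter at 6, with the mean of probe sets, with every probe set, with quantile normalization, in the fit of only these groups, without moderation and over the 9 arrays. In limma's fit of only these groups 0 of all 10435 genes were called, with 2137 at an unadjusted p under 0.05, and with quantile normalization 199 were called against 664. The call of Kcnd2 in AB against sAB was lost in 5 of 9 alternatives other than leaving out arrays (no dim filter, mean of probe sets, median centring, fit of only these groups, no moderation, adjusted p up to 0.167) and that in DB3 against AB in 2 of 10 (no dim filter and no moderation, adjusted p up to 0.112). The filter at 6 leaves Kcna1 and Kcnv2 untested; elsewhere the cause was not tested.

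Sign changes on differences that did not pass were Kcnd2 DB3 minus sDB3 (0.039 with the mean of probe sets), Kcne1 DB3 minus AB (-0.11) and its difference of effects (-0.037) with the same setting, Kcnd3 DB3 minus sDB3 (-0.081 with quantile normalization) and Kcnv2 sDB3 minus sAB (-0.022 with median centring). Leaving out each array, DB3 minus sDB3 ran from -0.21 to 0.087 for Kcnd2, -0.055 to 0.21 for Kcnd3 and -0.088 to 0.91 for Kcna5. DB3 minus AB ran from -0.15 to 0.20 for Kcnq1 and -0.31 to 0.46 for Kcne1, AB minus sAB from -0.26 to 0.20 for Kcna1 and -0.30 to 0.045 for Kcna5, and sDB3 minus sAB from -0.013 to 0.28 for Kcnd2 and -0.59 to 0.35 for Kcne1. The difference of effects ran from -0.12 to 0.047 for Kcnip2, -0.30 to 0.055 for Kcnq1, -0.27 to 0.68 for Kcne1 and -0.075 to 0.30 for Kcnh2. With the mean of its probe sets Kcnip2 passed as higher in AB than in sAB (0.33, adjusted p = 0.0434). Over all genes, quantile normalization gave 918 higher and 726 lower for AB minus sDB3 (1809 and 489 as deposited) and 107 and 92 for DB3 minus sDB3 (560 and 104), 712 and 735 for sDB3 minus sAB (573 and 1288), and 229 and 344 for the difference of effects (360 and 270). No paired analysis was possible because the labels carry no replicate numbers shared between groups.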
